A study of Homo sapiens with 4 samples.

Results

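The genes described here are 36 genes of the actin cytoskeleton, of the transcription factor SRF and of the YAP pathway, taken by gene symbol from a deposited table of 19775 genes. All 36 were listed, with CYR61 and CTGF (now CCN1 and CCN2) under these older symbols. The series studied H1, an established line of wild-type human embryonic stem cells, in E8, a defined medium that holds insulin, FGF2 and TGFβ. Of its 4 samples, all labelled 12 h, 2 had E8 as their only medium and 2 received XMD892 at 1 µM, a compound that inhibits the kinase ERK5. The table has 9 columns of values, and the names of 2 match a sample: replicates 1 and 2 of XMD892 at 12 h. The untreated columns are named for 48 h, a time that no sample's label gives, and 1 more column carries XMD892 at 12 h with replicate number 3. These and the other columns, 7 in all, were not used here. The untreated samples were not analysed here, so where the treated replicates stand against untreated cells is not answered, and no value below is an effect of the compound. No label says that the treated libraries are from different cultures, and their spread may be technical.

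Actin and SRF form a loop. Unpolymerized actin holds the coactivators MRTF-A and MRTF-B (MKL1 and MKL2) in the cytoplasm. When actin polymerizes, they enter the nucleus and act with SRF at CArG boxes in the promoters of actin, filamin, calponin and other contractile genes. YAP and its relative TAZ (WWTR1) are held back by the LATS kinases and otherwise act with TEAD factors on genes such as CTGF and CYR61. Both systems are known to respond to cell spreading, density and tension, which differ across the epithelial colonies in which human pluripotent cells grow.

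Promoter sequence shows which members carry the motifs that define the 2 systems. RefSeq (GRCh38.p14) gives windows from 250 bases before to 50 bases after an annotated start for 29 of the 36 genes, with 45 windows in all. The other 7 members (ACTB, CYR61, MYL9, TAGLN, TEAD1, TEAD4 and THY1) were not searched. Exact matches to the CArG box were found for 6 of the 29 genes (20.7%): ACTG1, ACTN1, CNN2, FLNA, SRF and TPM4. Of all 27305 genes with windows 1.60% held one. The motif GGAATG, on either strand (CATTCC on the other), is the core of TEAD sites and was found for 11 of the 29 genes (37.9%) against 16.7% of all genes. Members were picked for their links to SRF and YAP, and genes differ in their number of windows (per window the shares were 13.3% against 1.29%, and 24.4% against 14.0%), so these shares describe the choice of genes. A match is not a shown binding site.

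The stretches below carry CArG boxes, in capitals, and each is written 5′ to 3′ on the gene's own strand. SRF is shown because it holds a pair of boxes just before its start. ACTG1, FLNA and TPM4 are shown because their differences between the treated libraries, given further on, lay on both sides of equal levels.
SRF: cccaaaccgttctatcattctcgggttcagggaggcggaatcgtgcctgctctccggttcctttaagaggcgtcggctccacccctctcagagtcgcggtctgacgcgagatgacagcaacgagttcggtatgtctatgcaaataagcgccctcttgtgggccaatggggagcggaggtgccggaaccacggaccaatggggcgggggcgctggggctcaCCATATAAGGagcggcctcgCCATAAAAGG
ACTG1: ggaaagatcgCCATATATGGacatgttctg
FLNA: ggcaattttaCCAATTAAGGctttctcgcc
TPM4: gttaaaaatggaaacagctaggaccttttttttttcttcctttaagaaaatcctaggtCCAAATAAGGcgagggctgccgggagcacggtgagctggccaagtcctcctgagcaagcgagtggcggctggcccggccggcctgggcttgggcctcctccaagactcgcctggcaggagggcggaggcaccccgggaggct

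The SRF stretch is chr6:43171019-43171268 on the plus strand, and its boxes begin 30 and 10 bases before the start. The box of ACTG1 begins 94 bases before the start, in chr17:81512874-81512903 on the minus strand, and that of FLNA also 94 bases before, in chrX:154374709-154374738 on the minus strand. In GENCODE release 29 these 2 stretches overlap exons by 18 bases (of a longer ACTG1 transcript) and 19 bases (of AC245140.3). The box of TPM4 begins 173 bases before the start, in chr19:16067307-16067506 on the plus strand, outside annotated exons.

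CTGF and FLNC are shown for the TEAD motif, again in capitals. CTGF is the textbook YAP target and holds the motif 3 times, with the copies beginning 169, 104 and 95 bases before its start. FLNC holds 1 copy, which begins 103 bases before the start, and was among the members furthest apart between the libraries.
CTGF: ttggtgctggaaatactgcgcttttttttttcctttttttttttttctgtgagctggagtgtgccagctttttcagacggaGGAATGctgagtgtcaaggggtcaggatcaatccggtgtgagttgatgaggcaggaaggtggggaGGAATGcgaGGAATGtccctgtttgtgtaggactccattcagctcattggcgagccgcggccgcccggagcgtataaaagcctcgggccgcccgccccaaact
FLNC: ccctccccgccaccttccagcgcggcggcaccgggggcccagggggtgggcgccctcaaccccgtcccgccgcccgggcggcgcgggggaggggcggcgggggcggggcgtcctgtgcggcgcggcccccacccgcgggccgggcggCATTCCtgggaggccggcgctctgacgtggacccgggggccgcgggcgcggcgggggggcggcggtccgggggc

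The CTGF stretch is chr6:131951374-131951622 on the minus strand and the FLNC stretch chr7:128830156-128830376 on the plus strand, both outside annotated exons.

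Levels are in RPKM, reads scaled by the merged exon length of a gene and by the recovered reads of its library, so that genes can be compared. The 36 genes were well expressed as a set: their median was 22.7 RPKM against 2.31 RPKM over the 19283 genes with a length. Of the 36, 32 reached 1 RPKM in both libraries (88.9%, against 59.5% of all genes). They were not equally abundant: 3 members lay at 100 RPKM or more, 19 between 10 and 100, 12 between 1 and 10, and 2 below 1. Together they took 1.87% of the reads in replicate 1 (95% Clopper-Pearson interval 1.86 to 1.88) and 1.39% in replicate 2 (1.39 to 1.40). Without ACTB and ACTG1 the shares were 0.814% and 0.50%. All counting intervals here leave out other error, and reads without molecular identifiers are not independent molecules.

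**Figure D1:**
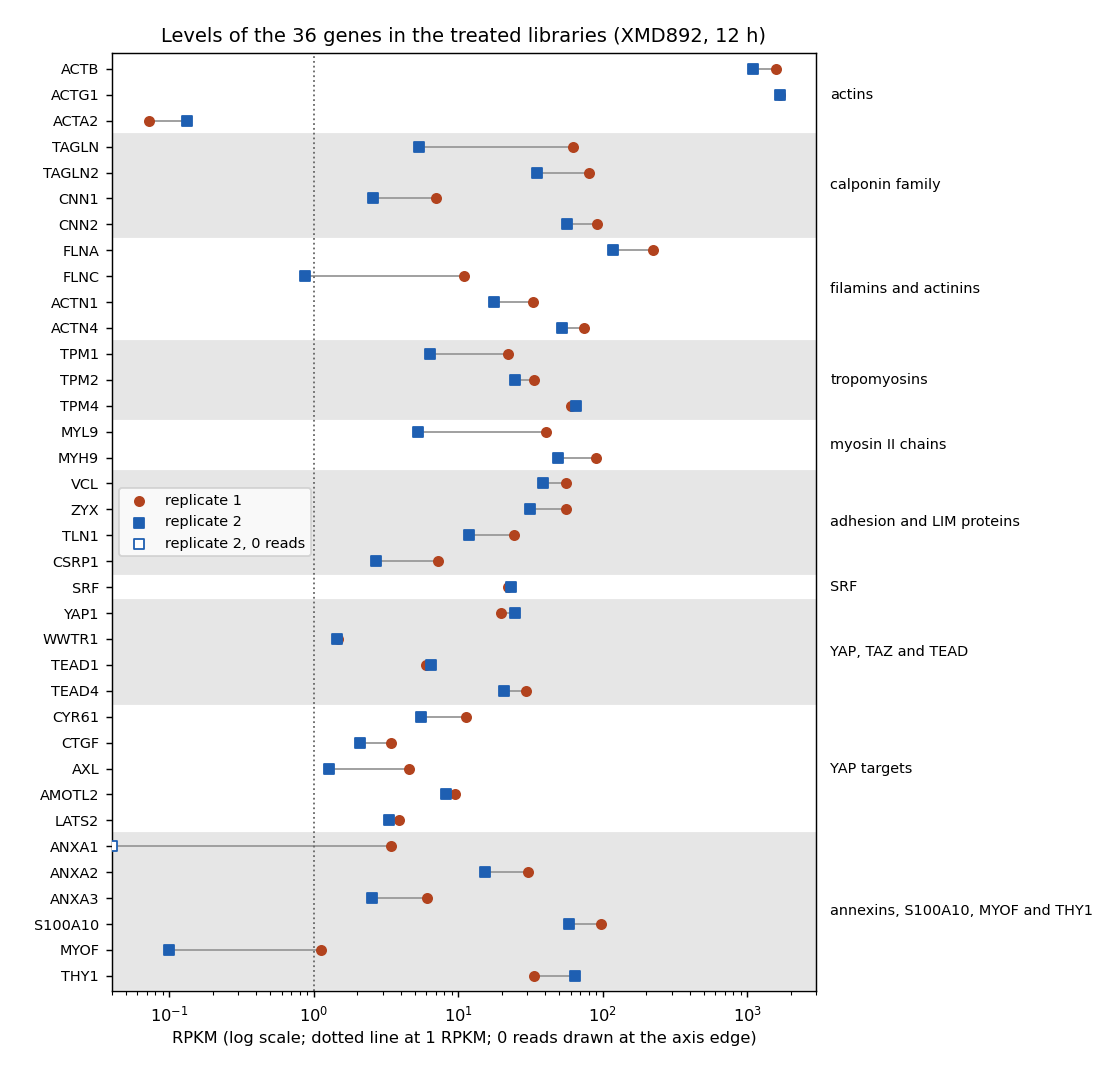
RPKM of each of the 36 genes (log axis) in replicate 1 (circles) and replicate 2 (squares), grouped by role; ANXA1 had 0 reads in replicate 2 and is drawn at the axis edge. ACTG1 (1683 RPKM in the mean) and ACTB (1333) lie highest, SRF and WWTR1 nearly coincide, and TAGLN, FLNC, MYL9, MYOF and ANXA1 show the widest gaps.

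Replicate 1 held more of most of these transcripts than replicate 2. Differences are log2(normalized count + 1) in replicate 2 minus replicate 1, on the authors' scale, and are read for genes whose normalized count averages 10 or more; the scale understates differences of low genes. Of the 36 members 35 passed that minimum, and ACTA2 did not. Replicate 1 was higher for 28 of the 35 and replicate 2 for 7, against 47.9% and 52.1% of all 16148 genes past the minimum. The median of the 35 was -0.71 and that of all genes 0.023. The libraries lay 2-fold or more apart for 12 of the 35, against 10.9% of all genes. Replicate 1 was at least 2-fold higher for 11 of the 35, against 6.14% of all genes. These 11 were TAGLN, TAGLN2, CNN1, FLNC, TPM1, MYL9, CSRP1, AXL, ANXA1, ANXA3 and MYOF. Replicate 2 was at least 2-fold higher for 1 of the 35 (THY1), against 4.76% of all genes. With total reads as the scale these background shares became 7.41% and 3.81%, 13 members were at least 2-fold higher in replicate 1 with TLN1 (-1.03) and CYR61 (-1.02) added, and THY1 at 0.93 no longer reached 2-fold. The counting interval excluded equal levels for 32 of the 35, against 58.1% of all genes. Intervals narrow with read depth, and the members were more abundant than most genes, so these 2 shares are not like for like. With the minimum raised to 50, which all 35 passed, 5.64% of all genes lay at least 2-fold apart. There is 1 library on each side and so no p-value, and the members were chosen with the difference of these 2 libraries already known, so the counts describe it and do not support it.

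**Figure D2:**
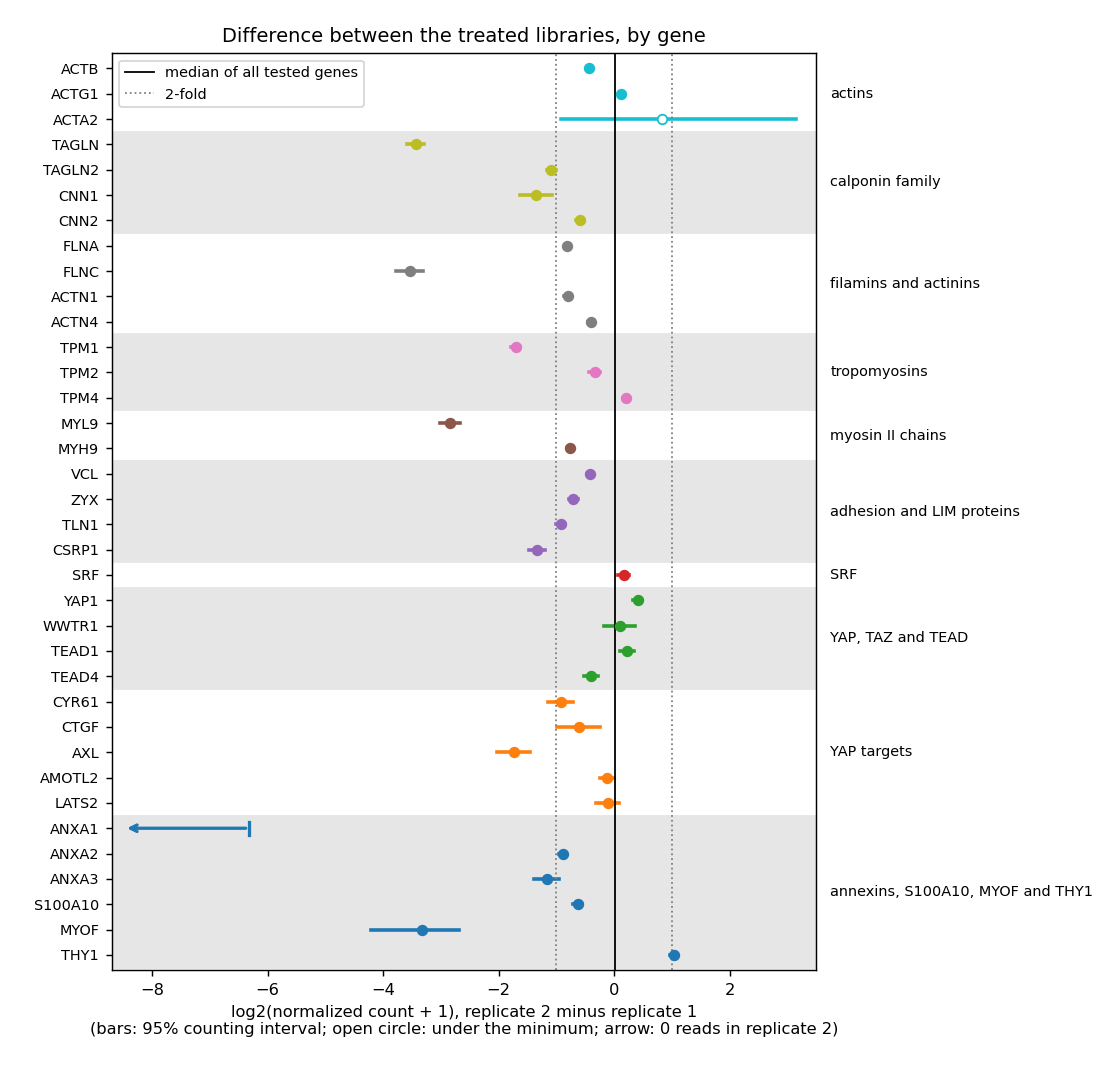
Difference in log2(normalized count + 1), replicate 2 minus replicate 1, for each of the 36 genes with its 95% counting interval; the arrow stands for ANXA1 with 0 reads in replicate 2, and the open circle for ACTA2, under the minimum. Most points lie left of the median of all genes, and THY1 and YAP1 lie furthest to the right among members past the minimum.

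The cytoskeletal actins were the most abundant members, and neither was 2-fold apart. ACTG1, which encodes γ-actin, had 99706 normalized counts in replicate 1 and 108039 in replicate 2, and stood at 1683 ± 12.1 RPKM (SD, n = 2). Replicate 2 was the higher by 1.08-fold, a direction that turned with quantile normalization (-0.068). ACTB, which encodes β-actin, had 110179 and 81992, and stood at 1333 ± 341 RPKM. Replicate 1 was the higher by 1.34-fold, a difference of -0.43 that became -0.82 with quantile normalization. By normalized count, which is not corrected for length, the order of the 2 actins was thus reversed between the libraries. In RPKM ACTG1 was above ACTB in both, at 1675 against 1574 in replicate 1 and 1692 against 1092 in replicate 2. Both genes are on the minus strand, ACTB at chr7:5527147-5563784 and ACTG1 at chr17:81509971-81523847 (GRCh38, as for all positions here). Their coding sequences are similar and many pseudogene copies exist, so some reads can be split wrongly between them. The listed ACTG1 pseudogenes had at most 7 reads each. ACTA2, the α-actin of smooth muscle, was the lowest member at 0.103 ± 0.0427 RPKM, on 4 and 8 reads. That depth does not resolve a difference (counting interval -0.92 to 3.16).

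The calponin family, small proteins that bind along actin filaments, was higher in replicate 1 for all 4 members. TAGLN (transgelin, or SM22α), a classical SRF target of smooth muscle, had 4847 normalized counts in replicate 1 and 446 in replicate 2. That gap was 10.8-fold (counting interval 9.83 to 12.0) and ranked 19th toward replicate 1 among the 16148 genes past the minimum. TAGLN is at chr11:117199321-117204782 (plus strand), where 446 exon bases are shared with PCSK7 on the opposite strand, which had 844 and 651 normalized counts. TAGLN2, the relative found in most cell types, was far less uneven at 3968 and 1871, a gap of 2.12-fold. CNN1 (calponin 1, of smooth muscle) had 404 and 158, and CNN2, the widely expressed calponin, had 6623 and 4375. These gaps were 2.54-fold and 1.51-fold. The muscle-type member of each pair was thus the less abundant in RPKM and showed the larger gap: TAGLN at 33.8 ± 40.2 against TAGLN2 at 57.7 ± 31.8 RPKM, and CNN1 at 4.80 ± 3.15 against CNN2 at 73.8 ± 24.8 RPKM (SD, n = 2).

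Filamins and α-actinins link actin filaments to each other and to the membrane, and all 4 members were higher in replicate 1. FLNA, the filamin of non-muscle cells, was the third most abundant member at 171 ± 74.5 RPKM, with 47100 and 26725 normalized counts. Its gap was 1.76-fold, and it passed 2-fold with quantile normalization (-1.16). FLNC, the filamin of striated muscle, had 2017 and 173 normalized counts, 11.6-fold more in replicate 1 (counting interval 9.93 to 13.8), and ranked 18th toward that library. It stood on either side of 1 RPKM, with 10.9 in replicate 1 and 0.874 in replicate 2. FLNC is at chr7:128830377-128859274 (plus strand) and FLNA at chrX:154348524-154374638 (minus strand). The actinins were closer, with ACTN1 at 6956 and 3990 normalized counts and ACTN4 at 8957 and 6777. Replicate 1 was the higher by 1.74-fold and 1.32-fold.

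Among the tropomyosins, which coil along the filament and gate its use by myosin, the gaps were uneven. TPM1 had 5701 normalized counts in replicate 1 and 1750 in replicate 2, a gap of 3.26-fold. TPM2 had 2167 and 1718, or 1.3-fold more in replicate 1. TPM4 had 10415 and 12087, and here replicate 2 was the higher by 1.16-fold. TPM4 was also the most abundant of the 3 at 63.1 ± 3.52 RPKM, against 29.2 ± 6.19 for TPM2 and 14.3 ± 11.2 for TPM1 (SD, n = 2). The isoforms of TPM1 share exons that a gene-level value does not separate.

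Both myosin II chains were higher in replicate 1, by unlike amounts. MYL9, a regulatory light chain of smooth muscle and non-muscle myosin, had 2278 normalized counts in replicate 1 and 319 in replicate 2. That was a gap of 7.13-fold (counting interval 6.33 to 8.09), ranked 48th toward replicate 1. MYL9 is at chr20:36541484-36551447 (plus strand). MYH9, the heavy chain of non-muscle myosin IIA, had 15978 and 9373, a gap of 1.70-fold, and stood higher at 68.9 ± 28.6 RPKM against 22.9 ± 25.0 for MYL9.

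The 4 adhesion and LIM-domain proteins were all higher in replicate 1, with a median difference of -0.82. VCL (vinculin), which ties adhesions to actin under load, had 11056 and 8261 normalized counts, 1.34-fold apart. ZYX (zyxin), a LIM protein of tensed adhesions, had 3837 and 2347, 1.63-fold apart. TLN1 (talin 1), which activates integrins, had 4862 and 2559, 1.90-fold apart, and passed 2-fold when total reads set the scale (-1.03). CSRP1, a LIM protein of muscle and other cells, had 1495 and 592 and showed the widest gap of the 4 at 2.52-fold. VCL was the most abundant of them at 47.2 ± 11.9 RPKM and CSRP1 the least at 4.99 ± 3.25.

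SRF itself was slightly higher in replicate 2. It had 1842 normalized counts in replicate 1 and 2066 in replicate 2, 1.12-fold more in replicate 2, and stood at 22.5 ± 0.712 RPKM. Its difference was 0.17 (counting interval 0.071 to 0.26), and 0.064 when total reads set the scale. The gene is at chr6:43171299-43181507 (plus strand). Of the 6 members with a CArG box in a window, ACTG1, SRF and TPM4 were higher in replicate 2, by 0.12, 0.17 and 0.21. ACTN1, CNN2 and FLNA were higher in replicate 1, at -0.80, -0.60 and -0.82. None of these 6 was at least 2-fold apart on the authors' scale, and with quantile normalization FLNA was (-1.16). The members with the widest gaps, FLNC, MYOF and ANXA1, had no exact CArG box in their windows, which says nothing of boxes elsewhere, and TAGLN and MYL9 were not searched.

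The transcripts of YAP, TAZ and the TEAD factors differed little between the libraries, and 3 of the 4 were higher in replicate 2. YAP1 had 2490 normalized counts in replicate 1 and 3303 in replicate 2, 1.33-fold more in replicate 2. Its level was 22.2 ± 3.32 RPKM, and the gene is at chr11:102110461-102233423 (plus strand). WWTR1, which encodes TAZ, was far lower at 1.46 ± 0.00326 RPKM with 245 and 262 normalized counts. Its counting interval of -0.17 to 0.36 held equal levels, and its direction turned with total reads as the scale (-0.0045). TEAD1 had 1214 and 1419, 1.17-fold more in replicate 2. TEAD4, the TEAD factor best known from trophoblast, had 1333 and 1011, 1.32-fold more in replicate 1. In RPKM TEAD4 (25.2 ± 6.11) stood above TEAD1 (6.21 ± 0.377). YAP activity lies in where the protein is and how it is phosphorylated, which transcript levels do not measure.

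All 5 YAP target genes were higher in replicate 1, with AXL at least 2-fold apart and, when total reads set the scale, CYR61 too (-1.02). AXL, a receptor tyrosine kinase, had 468 normalized counts in replicate 1 and 140 in replicate 2, 3.32-fold apart. CYR61, a secreted matrix-associated protein, had 552 and 291, 1.89-fold apart. CTGF, its relative, had 160 and 104, 1.53-fold apart, on 149 and 99 reads. AMOTL2, which binds YAP and restrains it, had 1132 and 1043, and LATS2, a kinase that inactivates YAP, had 430 and 398. The counting intervals of AMOTL2 (-0.25 to 0.0072) and LATS2 (-0.32 to 0.093) held equal levels on the authors' scale. No gap was thus resolved for these feedback genes on that scale. With total reads as the scale their differences went from -0.12 and -0.11 to -0.22 and -0.21, and intervals were not computed there. Levels were low to moderate, from 2.77 ± 0.951 RPKM for CTGF to 8.84 ± 0.954 for AMOTL2 (SD, n = 2).

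Among the annexins and the other surface and membrane genes, replicate 1 was higher for all but THY1. ANXA1 (annexin A1), a calcium-dependent membrane-binding protein, had 291 reads in replicate 1 and none (0) in replicate 2. A count of 0 allows up to 3 reads in that library, and the level of replicate 1 was 98.7-fold above this floor. The counting interval, which also holds the error of the 291 reads, had its lower end at 79.7-fold. With a pseudocount of 1 the difference ranked first toward replicate 1 among the 16148 genes, at -8.29, and with a pseudocount of 5 it was -5.99. ANXA1 is at chr9:73151757-73170393 (plus strand). ANXA2 and S100A10 encode the subunits of 1 complex under the membrane. They had 5322 and 2866 normalized counts, and 2976 and 1918, gaps of 1.86-fold and 1.55-fold. Reads of ANXA2 can be shared with its pseudogenes; the listed ANXA2P2 had 18 and 4 reads. ANXA3 had 620 and 276, 2.24-fold apart. MYOF (myoferlin), a protein of membrane repair, had 190 and 17.9, 10.1-fold apart on 177 and 17 reads, with a counting interval of 6.43 to 18.6. THY1 (CD90), a surface protein that pluripotent cells as well as fibroblasts carry, had 3970 in replicate 1 and 8110 in replicate 2. It was 2.04-fold higher in replicate 2, the opposite of the other members of this group.

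**Figure D3:**
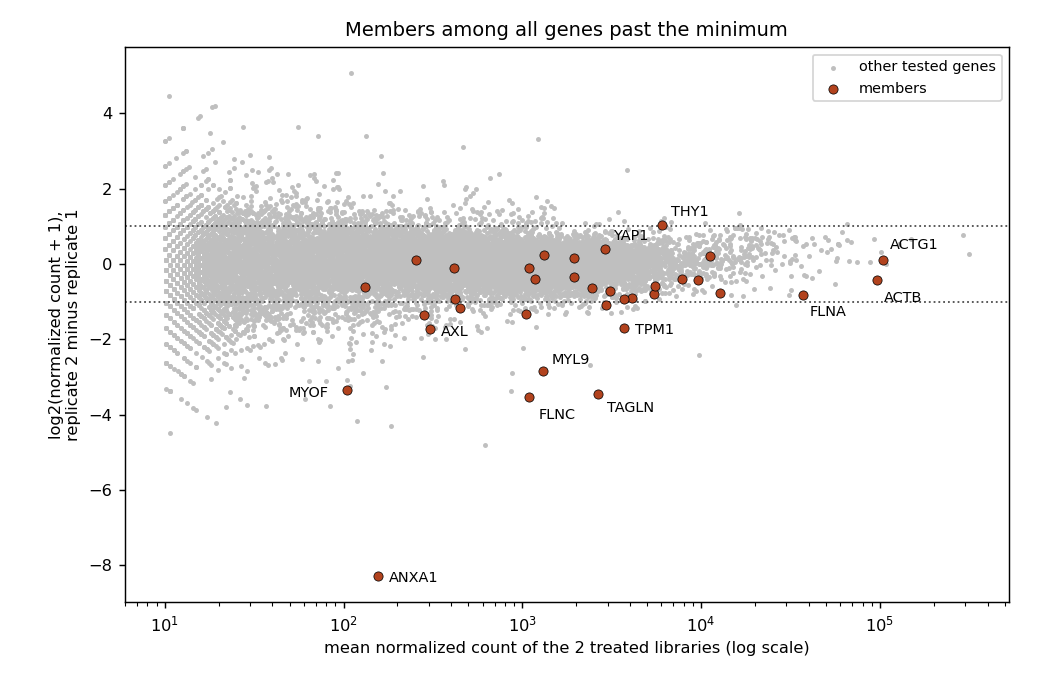
Difference between the treated libraries (y axis, log2, replicate 2 minus replicate 1) against mean normalized count (x axis, log scale) for all 16148 genes past the minimum (grey) and the 35 members among them (coloured); dotted lines mark 2-fold. TAGLN, FLNC and MYL9 lie well below the grey cloud at their abundance, ACTG1 and ACTB sit at its right end near 0, and the place of ANXA1 depends on the pseudocount.

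Ratios of related genes within a library do not depend on a scaling factor per library, such as a size factor or total reads. Quantile normalization can move them. TAGLN stood at 0.776 of the RPKM of TAGLN2 in replicate 1 and at 0.151 in replicate 2. FLNC stood at 0.0488 and 0.00739 of FLNA, and TPM1 at 0.367 and 0.0970 of TPM4. MYL9 stood at 0.452 of MYL12B, its widely expressed relative, in replicate 1 and at 0.0450 in replicate 2. These 4 ratios were 5.12, 6.61, 3.78 and 10.05 times as high in replicate 1. Other pairs kept closer proportions: ACTB to ACTG1 was 0.940 and 0.645, ACTN1 to ACTN4 0.446 and 0.338, and ANXA3 to ANXA2 0.201 and 0.166. CTGF to CYR61, at 0.304 and 0.376, was the 1 ratio of the 12 that was higher in replicate 2. The 12 pairs were picked for relatedness after the values had been seen.

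**Figure D4:**
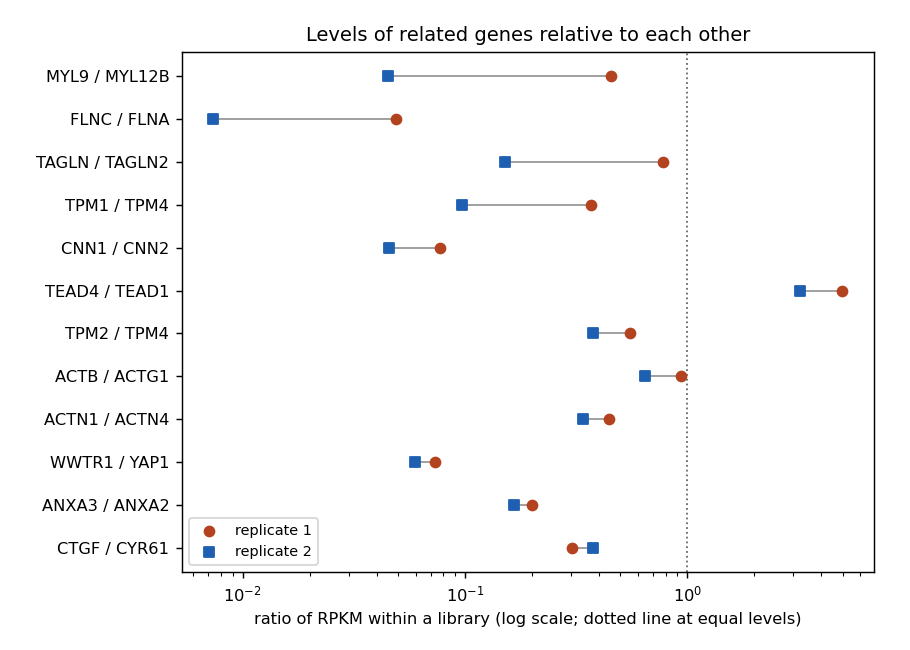
RPKM of 1 gene divided by that of a related gene within the same library (log axis), replicate 1 as circles and replicate 2 as squares, for 12 pairs. The widest gaps are MYL9 over MYL12B, FLNC over FLNA, TAGLN over TAGLN2 and TPM1 over TPM4; ACTB over ACTG1 is 0.940 and 0.645.

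Lists of other genes of the same pathways differed in whether they leaned toward replicate 1. Among 25 further targets of actin and SRF signalling, replicate 1 led in 11 and replicate 2 in 14, with a median of 0.018. That is near all genes past the minimum, whose shares were 47.9% and 52.1% and whose median was 0.023. Replicate 1 was at least 2-fold higher for 3 of the 25 and replicate 2 for 0, against 6.14% and 4.76% of all genes. The 3 were sarcomeric or smooth muscle actins on few reads: ACTA1 with 177 and 30 reads (5.85-fold), ACTG2 with 39 and 5 (6.83-fold), and ACTC1 with 37 and 17 (2.15-fold). Reads of these genes can be shared with the far more abundant ACTB and ACTG1. The light chains MYL12B (104 ± 19.7 RPKM) and MYL6 (95.8 ± 5.14 RPKM) were the highest of the list and were 1.41-fold and 1.16-fold higher in replicate 2. The widest gap toward replicate 2 was that of LIMA1, an actin-binding LIM protein, at 1.83-fold. ACTG2 and ACTC1 are named outside the naming rule, after their values were seen.

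For the 16 genes of the Hippo core and its partners, replicate 1 led in 9 and replicate 2 in 7, against 47.9% and 52.1% of all genes. Their median was -0.069, and 0 genes were 2-fold apart, against 10.9% of all genes. TEAD2 was the highest at 54.2 ± 1.99 RPKM, above TEAD4 and TEAD1, followed by the kinase adaptor MOB1A at 18.7 ± 0.836. NF2 (merlin), an activator of the LATS kinases, was 1.58-fold higher in replicate 1, and VGLL4, a competitor of YAP on TEAD, 1.35-fold higher in replicate 2. The further YAP targets leaned toward replicate 1 in the median (-0.56), though not all of them did. Of 14 listed genes of 16, 13 passed the minimum, and 9 of the 13 were higher in replicate 1, against 47.9% of all genes. Replicate 1 was at least 2-fold higher for 4 of the 13 and replicate 2 for 1, against 6.14% and 4.76% of all genes. FJX1, the highest of them at 8.38 ± 5.85 RPKM, was 2.74-fold higher in replicate 1. GADD45A, a stress-induced gene, followed at 7.27 ± 0.00730 RPKM, and CRIM1 was 1.11-fold higher in replicate 2. The 1 gene at least 2-fold higher in replicate 2 was RBMS3 (3.01-fold; 19 and 60 reads), named outside the naming rule after its values were seen.

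Replicate 1 led for 12 of 18 focal adhesion and integrin genes, against 47.9% of all genes, with a median of -0.17. Only CAV1 (caveolin 1, 4.78-fold; 736 and 156 reads) and LPP (a zyxin relative, 2.09-fold; 1764 and 859 reads) were at least 2-fold apart, both higher in replicate 1. Over all genes past the minimum 10.9% were at least 2-fold apart. The integrins ITGB1 (76.4 ± 16.8 RPKM) and ITGB5 (40.4 ± 5.76 RPKM) were the highest, and ITGB1 was 1.47-fold higher in replicate 2. The further annexin and S100 genes leaned the other way, with a median of 0.24. Of 12 genes 10 were listed, and 9 of these were higher in replicate 2, against 52.1% of all genes past the minimum. The exception was ANXA5 (109 ± 31.8 RPKM), 1.42-fold higher in replicate 1. For S100A4, S100A6, S100A16, ANXA4 and ANXA11 the counting intervals held equal levels. S100A11 stood at 106 ± 8.87 RPKM, and S100A13 was 2.01-fold higher in replicate 2. LPP is named outside the naming rule, after its values were seen. All these lists were set up with results on these 2 libraries known.

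**Figure D5:**
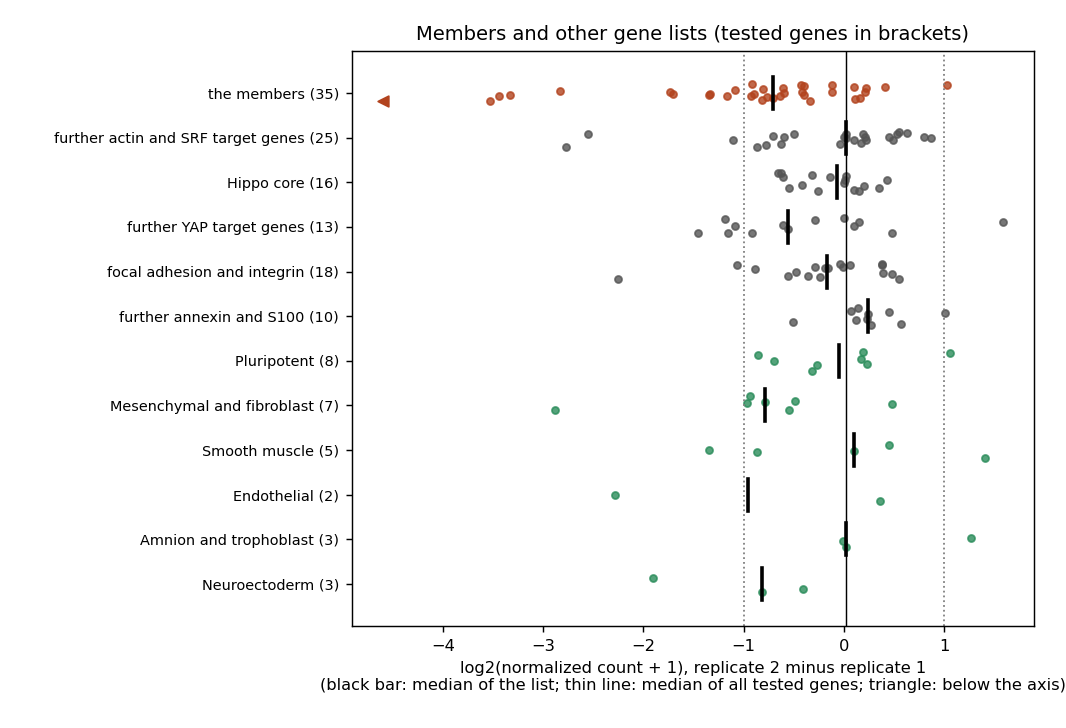
Difference between the treated libraries (log2, replicate 2 minus replicate 1) for each gene past the minimum, in the members, 5 other lists of the pathways (grey) and 6 lists of cell type markers (green), with the median of each list as a black bar and ANXA1 as a triangle at the left edge. The medians of the members (-0.71), further YAP targets (-0.56) and mesenchymal markers (-0.79) lie left of 0, and that of further annexin and S100 genes (0.24) lies right of it.

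Some genes on the lists of cell type markers were, like most members, higher in replicate 1. All 8 pluripotency markers reached 1 RPKM in both libraries, and their summed level was 2172 RPKM in replicate 1 and 2533 in replicate 2, which matches the labelled cell type. The larger sum of replicate 2 rested on POU5F1 (OCT4), whose reads pseudogenes can share. POU5F1 stood at 734 RPKM in replicate 1 and 1430 in replicate 2, a gap of 2.09-fold. By direction the 8 markers split evenly, 4 to each library, and their median difference was -0.044. LIN28A (536 and 402 RPKM) and DNMT3B (426 and 245 RPKM) leaned toward replicate 1, as did SALL4 by 1.81-fold. Of 12 mesenchymal and fibroblast markers 7 were listed, and 6 of the 7 were higher in replicate 1 (median -0.79), against 47.9% of all genes. Only 2 of the 7 reached 1 RPKM in both libraries. COL6A3 (16 and 23 reads) leaned toward replicate 2. Its counting interval and that of PDGFRA (28 and 20 reads) held equal levels. The summed level of the 7 was 18.7 RPKM in replicate 1 and 7.27 in replicate 2. COL3A1, DCN, LUM, POSTN and TWIST1 were not listed, and no listed marker had 0 reads. COL1A1 (7.39-fold; 1429 and 196 reads) and COL1A2 (1.46-fold) made up most of that sum. Of 6 smooth muscle markers, which include the members CNN1 and ACTA2, 5 passed the minimum, 2 were higher in replicate 1, and the sums were 9.32 and 5.43 RPKM. The defining MYH11 had 33 and 18 reads and DES had 15 and 42. Endothelial markers summed to 0.534 and 0.159 RPKM, amnion and trophoblast markers to 1.86 and 2.17, and neuroectoderm markers to 173 and 90.7. Nearly all of the last was NES, at 130 ± 56.7 RPKM, above every member but ACTG1, ACTB and FLNA. Of 4 neuroectoderm markers 3 were listed, and all 3 were higher in replicate 1, against 47.9% of all genes past the minimum. Their median was -0.82, and OTX2, with 128 and 34 reads, was 3.75-fold higher in replicate 1. PAX6 was not listed, and SOX1 had 42 and 32 reads, with a counting interval that held equal levels. The list thus rests on NES and OTX2 and does not show that neural cells were present. The part of any of these in the members' difference was not tested. In bulk RNA, fewer cells of a type and less RNA per cell cannot be told apart.

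The libraries also differed in other ways that touch every value above. Replicate 1 held 18528689 recovered reads and replicate 2 held 20217648. Cytoplasmic ribosomal protein genes took 5.75% of the reads in replicate 1 and 8.48% in replicate 2, and mitochondrially encoded protein genes took 4.81% and 5.34%. With total reads as the scale the median of all genes moved from 0.023 to -0.077. The median of the members relative to that of all genes was -0.73 on either scale. A change of 1 factor per library leaves that value almost fixed, so its constancy is no check. With quantile normalization it was -0.82. Of the 36 members, 9 share exon bases with a listed gene on the opposite strand, and no source used here says whether counting used strand.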

How the data were processed

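Poly(A)-selected RNA of H1 cells was sequenced in paired-end reads, per the labels' protocols. The deposited values are a normalized signal: the authors divided gene counts by 1 size factor per library, as the values show (100% of them were whole multiples of 1 step per column, within 0.01 reads). Dividing by the step gave whole reads, with size factors of 0.932 and 0.948. Per the submitters' processing notes the tools include Trimmomatic 0.36, STAR, featureCounts 1.5.3 and DESeq2 1.26.0, on hg38, with no roles stated. Annotation and strand setting: not given in the sources used here. Column names were matched to labels by treatment, time and replicate; 7 columns were not used, and the planned limma test of XMD892 against E8 was not run.

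RPKM used merged exon lengths of GENCODE release 29 (GRCh38), matched by symbol for 19283 genes and all 36 members. Differences used a pseudocount of 1 and a minimum mean normalized count of 10. Counting intervals are exact binomial 95% intervals on reads, rescaled by the size factors. Scripts ran in Python 3.11.15 with scipy 1.17.1 and were tested on simulated data. All members are named. Other lists are named by their 2 highest genes in RPKM and, where the normalized count averages 50 or more, the largest difference in each direction. The lists of cell type markers follow this rule only in part. Members and lists were chosen with earlier results of these data known, and 1 list is not reported here. Alternatives were total reads or quantile normalization as the scale, pseudocounts of 0.5 and 5, no minimum or one of 50, the longest transcript as length, and each library alone.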

Additional observations from a re-analysis of the deposited data

How the results depend on the processing

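The median difference of the members kept its sign under every setting run, and its value of -0.71 became -0.81 with total reads as the scale, -0.80 with quantile normalization and -0.67 with no minimum. The number of members at least 2-fold apart was 12, or 13 under either other scale: total reads added TLN1 and CYR61 and dropped THY1, and quantile normalization added FLNA. The direction turned for WWTR1 with total reads (-0.0045) and for ACTG1 with quantile normalization (-0.068), and for no other member under any setting run. With each library alone, the median RPKM of the members ran from 13.6 to 26.9, and the members at 1 RPKM or more numbered 32 to 35. No paired analysis was possible because the samples in E8 alone were not analysed here. Depth limits ACTA2, with 4 and 8 reads, and also MYOF, with 17 reads in replicate 2. The counting intervals of ACTA2, WWTR1, AMOTL2 and LATS2 hold equal levels on the authors' scale. Intervals were not computed on the other scales.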
